A study of Mus musculus with 6 samples.

Results

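The transcripts of 10 genes were followed in mouse bone marrow-derived macrophages (BMDMs), namely Areg, Ereg, Hbegf, Btc and Tgfa, which encode ligands of the epidermal growth factor (EGF) receptor, Egfr, Erbb2 and Erbb3, which encode receptors of the ErbB family, and Hgf and Met, which encode hepatocyte growth factor and its receptor. The genes were picked by symbol, and each symbol was found once among the 54532 genes of the deposited table. The BMDMs had been cultured together with ID8, an ovarian cancer line of the mouse, and the study asked how tumour cells that have met cisplatin, a platinum drug, act on them. Pretreatment of the ID8 cells was with 40 µM cisplatin for 3 libraries and with phosphate-buffered saline (PBS) for the other 3. Both groups held BMDMs and ID8 cells, and no library of BMDMs alone was analysed here. Per the study's methods, the marrow came from C57BL/6 mice of 6 to 8 weeks, and the myeloid cells, which the methods call monocytes, were collected after the co-culture. How they were separated from the ID8 cells was not given in the sources used here, and the labels do not say whether the libraries of a group came from separate cultures. The study's methods mention biological replicates for the differential expression analysis and cell experiments done in triplicate, without tying a library to a culture, so the p-values measure the spread between these libraries, whether biological or technical.

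EGF family ligands are made as membrane-anchored precursors, and proteases of the ADAM family cut them free. Areg (amphiregulin) and Tgfa (transforming growth factor alpha) bind the EGF receptor, whereas Btc (betacellulin), Ereg (epiregulin) and Hbegf (heparin-binding EGF-like growth factor) also bind ErbB4. Erbb2 encodes a receptor with no known ligand that acts as a partner of the others, and Erbb3 encodes a receptor for neuregulins with little kinase activity of its own. Hepatocyte growth factor, a product of stromal and myeloid cells, signals through Met, and both receptor families feed the RAS-ERK and PI3K-AKT pathways.

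Markers of both cell types of the co-culture were present and differed between the groups. All 15 macrophage markers were tested and higher with cisplatin, and 7 passed both thresholds. Their summed level was 4806 to 4991 FPKM with cisplatin and 1947 to 1968 FPKM with PBS. FPKM is a read level scaled to gene length and to an adjusted library size. Lyz2, which encodes lysozyme, carried most of the macrophage sum, and the other 14 genes came to 1403 to 1440 FPKM with cisplatin and 794 to 797 FPKM with PBS. Mertk, one of the 7, passed the filter through its cisplatin libraries alone, so that its direction was fixed by the filter. The general macrophage markers Adgre1 (190 ± 3.52 FPKM against 103 ± 1.06, SD, n = 3 each) and Csf1r (84.5 ± 2.37 against 44.0 ± 0.62) were among the 8 below the fold threshold, and scaled to the Y-linked genes they came to -0.12 and -0.057, where all tested genes had a median of -0.83. The ID8, mesothelial and epithelial list summed to 243 to 263 FPKM with cisplatin and 1310 to 1414 FPKM with PBS. Over all tested genes 11.3% were called lower and 4.67% higher by both thresholds, which are set out below. Of the 15 genes of the ID8, mesothelial and epithelial list, 10 were tested, all 10 were lower with cisplatin, and 8 passed both thresholds. The mesothelial genes Krt19 (51.1 ± 3.80 against 588 ± 28.8 FPKM) and Wt1 (3.41 ± 0.17 against 37.8 ± 1.15 FPKM) were among them, while the epithelial marker Epcam, at most 0.403 FPKM, and 4 others of the list lay under 1 FPKM in every library. The fibroblast list summed to 21.8 to 24.4 FPKM with cisplatin and 58.7 to 62.6 FPKM with PBS, most of it Dcn, which encodes the matrix proteoglycan decorin and fell with cisplatin to 16.2 ± 0.84 FPKM from 54.1 ± 2.62 with PBS (SD, n = 3 each), by 1.68 on the log2 scale (limma adjusted p = 4.89e-07). Dcn was the 1 gene of this list that passed both thresholds, 3 of its 9 genes were tested, and of the other 2 Thy1 was higher (log2 fold change 0.58) and Col1a1 lower (-0.47) at the adjusted p alone. In such bulk RNA, fewer cells of a type and less RNA per cell cannot be told apart, and the part of cell make-up in the values below was not tested.

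The sequences just ahead of the transcription start are shown for the 4 genes of the set that fell past both thresholds, and for Areg, which shares its stretch of chromosome 5 with Btc but not its direction. Each is the 130 bases before the RefSeq start on GRCm38.p6, read 5′ to 3′ on the strand of the gene. Capitals mark matches, on either strand, to the AP-1 site TGANTCA, the cAMP response element TGACGTCA, the GC box GGGCGG, the TATA box TATAAA, the TEAD site GGAATG and the interferon regulatory factor core GAAANNGAA.
Btc, chr5:91402995-91403124, minus strand: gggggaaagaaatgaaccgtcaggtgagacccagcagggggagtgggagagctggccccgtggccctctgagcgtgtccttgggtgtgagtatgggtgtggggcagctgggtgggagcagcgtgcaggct
Areg, chr5:91139469-91139598, plus strand: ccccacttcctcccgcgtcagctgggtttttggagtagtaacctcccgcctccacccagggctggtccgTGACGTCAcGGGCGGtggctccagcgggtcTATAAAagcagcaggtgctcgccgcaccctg
Tgfa, chr6:86195092-86195221, plus strand: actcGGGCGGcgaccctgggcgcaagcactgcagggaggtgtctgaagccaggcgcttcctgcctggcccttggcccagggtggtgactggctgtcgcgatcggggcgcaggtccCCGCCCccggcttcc
Egfr, chr11:16752073-16752202, plus strand: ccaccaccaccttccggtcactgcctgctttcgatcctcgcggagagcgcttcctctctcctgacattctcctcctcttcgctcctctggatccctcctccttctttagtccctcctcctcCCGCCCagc
Erbb2, chr11:98412354-98412483, plus strand: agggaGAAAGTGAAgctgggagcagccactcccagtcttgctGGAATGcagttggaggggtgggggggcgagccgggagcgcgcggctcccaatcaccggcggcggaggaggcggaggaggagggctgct
In the Areg window a cAMP response element began 61 bases before the start, a GC box 52 and a TATA box 31 bases before it. The same windows of 32851 RefSeq promoters held a cAMP response element in 1.30% of cases, a GC box in 27.3% and a TATA box in 6.83%. The Tgfa window held 2 GC boxes and the Egfr window 1. The Erbb2 window held 1 TEAD site, found in 6.41% of all windows, and 1 interferon regulatory factor core, found in 3.37%. The Btc window held none of the 6 motifs, and no AP-1 site (3.70% of all windows) was found in these 5 windows. Of the other members with a window, Met held an AP-1 site 54 bases before its RefSeq start and 2 GC boxes, and Hgf held none of the 6 motifs. The Met window, 17463827 to 17463956, lies inside the gene as annotated for the FPKM, which starts at 17463800. An Hgf window, 16553771 to 16553900, also lies inside its gene (start 16553495). The end of the Erbb2 window runs past the annotated start at 98412470. These matches are letters in a window, not measured binding, and no motif was common to the 4 genes that fell.

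Of the 10 genes, 4 were downregulated where the ID8 cells had met cisplatin, namely Btc, Tgfa, Egfr and Erbb2, and 0 were upregulated. A gene was called where its limma adjusted p was under 0.05 and its log2 fold change was at least 1 in size. Among the 13441 genes tested, 11.3% were called lower and 4.67% higher by this rule. At the adjusted p alone, 5 of the 10 were lower, with Erbb3 as the addition, against 35.1% of all tested genes, and 3 were higher (Areg, Hgf and Met), against 32.9%. The same number, 3, was higher at an unadjusted limma p under 0.05, against 34.3% of all tested genes, and limma voom called 1 (Areg) higher by both thresholds, against 9.13% of all tested genes. The 3 libraries of each group did not overlap for 8 genes, Ereg and Hbegf being the exceptions, where 72.4% of all tested genes were separated in this way. The median log2 fold change of the 10 genes was -0.46, and that of all tested genes was -0.0011. All 10 genes passed the filter on low values, Erbb2 through its PBS libraries alone, so that its level had to be higher there.

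**Figure D1:**
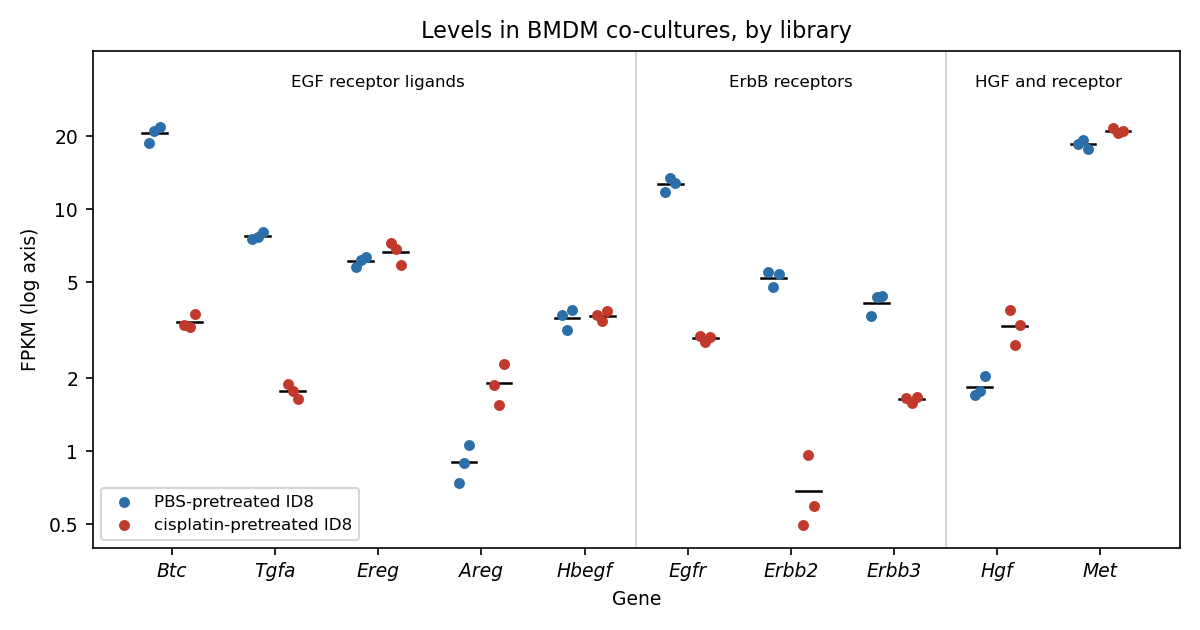
FPKM on a log axis of the 10 genes in each of the 6 libraries, with PBS libraries in blue, cisplatin libraries in red and the group mean as a black bar. Btc, Tgfa, Egfr, Erbb2 and Erbb3 lay lower in every cisplatin library, Areg, Hgf and Met lay higher, and the groups overlapped for Ereg and Hbegf.

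Btc showed the largest change among the 10 genes on the log2(FPKM + 1) scale, whereas Erbb2 fell further as a ratio of means, with a pseudocount of 0.1 (-2.80 against -2.55 for Btc), after TPM rescaling (-2.52 against -2.49) and with limma voom (-2.89 against -2.49). Btc (ENSMUSG00000082361, chromosome 5, 91357261 to 91402994, minus strand, protein-coding) stood at 18.7, 20.9 and 21.9 FPKM in PBS replicates 1, 2 and 3 and at 3.33, 3.26 and 3.68 FPKM in the cisplatin replicates. Each PBS library thus lay far above every cisplatin library, and the means of 20.5 ± 1.62 and 3.42 ± 0.23 FPKM (SD, n = 3 each) were 5.99-fold apart. On the log2(FPKM + 1) scale the change was -2.28 (SE 0.071, limma adjusted p = 4.46e-07). Log2 fold changes are on this scale, which understates the change of low genes, unless another setting is named. Between 1473 and 1534 reads lay behind each PBS value and between 242 and 275 behind each cisplatin value, so that counting error was small against the difference.

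Tgfa, the other ligand that fell, is located on chromosome 6 (ENSMUSG00000029999, 86195223 to 86275719, plus strand). It was measured at 7.56, 7.70 and 8.06 FPKM with PBS and at 1.89, 1.78 and 1.65 FPKM with cisplatin. No library of the one group reached the range of the other, and the means differed 4.38-fold (log2 fold change -1.66, SE 0.061, limma adjusted p = 9.09e-07). Both ligands that fell lay above 7 FPKM in all PBS libraries, and both lay under 4 FPKM in all cisplatin libraries.

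The remaining ligands did not pass both thresholds. Areg (ENSMUSG00000029378, chromosome 5, 91139599 to 91148432, plus strand) was the least abundant of the 10 genes with PBS, at 0.744, 0.898 and 1.06 FPKM, and stood at 1.89, 1.55 and 2.29 FPKM with cisplatin. The groups did not overlap and the means differed 2.12-fold, but only 16 to 20 reads lay behind each PBS value and 31 to 46 behind each cisplatin value. Its log2 fold change of 0.61 (SE 0.12, limma adjusted p = 0.00406) stayed under the fold threshold. With limma voom on the recovered reads it came to 1.16 (adjusted p = 0.00486) and with a pseudocount of 0.1 to 1.002 (adjusted p = 0.00442), past both thresholds. Scaled to the Y-linked genes it came to 0.046 (adjusted p = 0.763), where all tested genes had a median of -0.83, and to 0.88 relative to that median. That scaling applies the same factor to all genes of a library. The shift from 0.61 to 0.88 therefore stems from the 1 added to each FPKM and is no evidence of a larger rise.

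Ereg (ENSMUSG00000029377, chromosome 5, 91074622 to 91093646, plus strand) was listed at 5.78, 6.19 and 6.34 FPKM with PBS and at 7.25, 6.83 and 5.85 FPKM with cisplatin. Cisplatin replicate 3 lay inside the PBS range. The log2 fold change of 0.10 had a 95% confidence interval of -0.088 to 0.29 (limma adjusted p = 0.292), so that a 2-fold change lay outside the interval. The 5′ end of Ereg overlaps Gm19610, a gene on the opposite strand with 1.34 to 3.19 FPKM, and whether reads were counted by strand is not stated.

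Hbegf (ENSMUSG00000024486, chromosome 18, 36504929 to 36515805, minus strand) was measured at 3.64, 3.17 and 3.83 FPKM with PBS and at 3.64, 3.44 and 3.80 FPKM with cisplatin. The cisplatin values all fell within the PBS range, and the log2 fold change of 0.028 had an interval of -0.16 to 0.21 (limma adjusted p = 0.768). For Ereg and Hbegf any change was therefore small next to the 4.38-fold and 5.99-fold differences of Tgfa and Btc.

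Ereg, Areg and Btc lie side by side on chromosome 5, within 328373 bases. Epgn, which encodes epigen, a further EGF receptor ligand, lies 39406 bases ahead of Ereg. The neighbours did not share a direction, with log2 fold changes of 0.10 for Ereg, 0.61 for Areg and -2.28 for Btc. Epgn was too low to be tested, with 5 to 7 reads in each PBS library and 1 read in each cisplatin library. The gap between Areg and Btc spans 208828 bases, and that between Ereg and Areg 45952 bases.

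The composition of the ligand transcripts therefore also differed between the groups. The 5 ligands summed to 36.4, 38.9 and 41.2 FPKM with PBS and to 18.002, 16.9 and 17.3 FPKM with cisplatin. Btc made up 52.8% ± 1.26 of this sum with PBS and 19.7% ± 1.45 with cisplatin, and Tgfa 20.03% ± 0.62 and 10.2% ± 0.57 (SD, n = 3 each). The share of Ereg was 15.7% ± 0.28 with PBS and 38.2% ± 3.77 with cisplatin, that of Hbegf 9.15% ± 0.94 and 20.9% ± 0.98, and that of Areg 2.31% ± 0.27 and 10.99% ± 2.07. The groups did not overlap in the share of any of the 5 ligands, and a two-sided exact permutation test gave p = 0.1 for each share and for the sum, the smallest value that 3 libraries against 3 allow. The larger shares of Ereg and Hbegf stood beside log2 fold changes in level of 0.10 and 0.028. With limma voom these were 0.21 (adjusted p = 0.0488) and 0.12 (adjusted p = 0.447), and scaled to the Y-linked genes -0.76 and -0.75 (adjusted p = 9.2e-05 and 0.000268), which is 0.073 and 0.080 relative to the median of all tested genes.

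**Figure D2:**
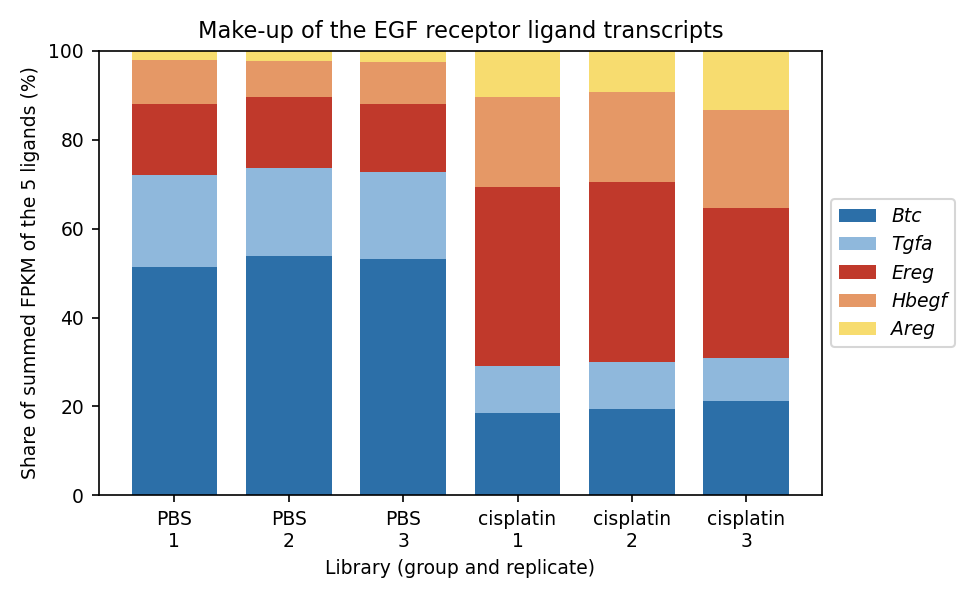
Share of each ligand gene in the summed FPKM of Areg, Ereg, Hbegf, Btc and Tgfa, in percent, for each library as 1 bar. Btc took over 51% of the sum in each PBS library, and Ereg, at 33.9% to 40.5%, was the largest share in each cisplatin library.

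All 3 ErbB receptor genes were lower with cisplatin. Egfr (ENSMUSG00000020122, chromosome 11, 16752203 to 16918158, plus strand) stood at 11.8, 13.4 and 12.8 FPKM with PBS and at 3.0005, 2.82 and 2.96 FPKM with cisplatin. The cisplatin libraries lay close together and far under all PBS libraries, with means that differed 4.32-fold (log2 fold change -1.80, SE 0.060, limma adjusted p = 5.97e-07). At least 525 reads lay behind each value. The antisense gene Egfros, within the Egfr locus, was listed at no more than 0.134 FPKM in any library.

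Erbb2 (ENSMUSG00000062312, chromosome 11, 98412470 to 98437716, plus strand) was measured at 5.50, 4.77 and 5.37 FPKM with PBS and at 0.497, 0.970 and 0.593 FPKM with cisplatin. Its means differed 7.59-fold, the widest ratio of the 10 genes, with 387 to 507 reads behind each PBS value and 44 to 83 behind each cisplatin value. The log2 fold change was -1.89 (SE 0.12, limma adjusted p = 1.18e-05). The last bases of Erbb2 overlap Mien1, a gene on the other strand that stood at 10.8 to 14.7 FPKM with cisplatin and 11.2 to 12.3 FPKM with PBS.

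Erbb3 (ENSMUSG00000018166, chromosome 10, 128567523 to 128589652, minus strand) went from 3.63, 4.33 and 4.36 FPKM with PBS to 1.66, 1.58 and 1.68 FPKM with cisplatin. The groups were apart and the means differed 2.51-fold, but the log2 fold change of -0.95 (SE 0.081, limma adjusted p = 5.04e-05) did not reach the fold threshold on the log2(FPKM + 1) scale. It passed with a pseudocount of 0.1 (-1.27), after TPM rescaling (-1.19), with voom (-1.22) and without PBS replicate 1 (-1.02). Scaled to the Y-linked genes it came to -1.65, but to -0.82 relative to the median of -0.83 that all tested genes had under that scaling. Erbb4, the fourth receptor of the family, was listed at 0 in all cisplatin libraries and had at most 2 reads in a PBS library.

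Hgf and Met had values on the other side of 0. Hgf (ENSMUSG00000028864, chromosome 5, 16553495 to 16620152, plus strand) stood at 1.71, 1.78 and 2.05 FPKM with PBS and at 3.82, 2.74 and 3.32 FPKM with cisplatin. All cisplatin libraries were above all PBS libraries, with means 1.78-fold apart, a log2 fold change of 0.59 (SE 0.11, limma adjusted p = 0.00264) and 199 to 467 reads behind each value. Met (ENSMUSG00000009376, chromosome 6, 17463800 to 17573980, plus strand) was at 18.5, 19.4 and 17.7 FPKM with PBS and at 21.5, 20.5 and 21.01 FPKM with cisplatin. The groups were again apart, by a mean ratio of 1.13 (log2 fold change 0.17, SE 0.045, limma adjusted p = 0.0124). Neither gene reached the fold threshold, and after scaling to the Y-linked genes both directions turned, to -0.12 for Hgf and -0.78 for Met, where all tested genes together had a median of -0.83, so that relative to it they stood at 0.71 and 0.056.

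**Figure D3:**
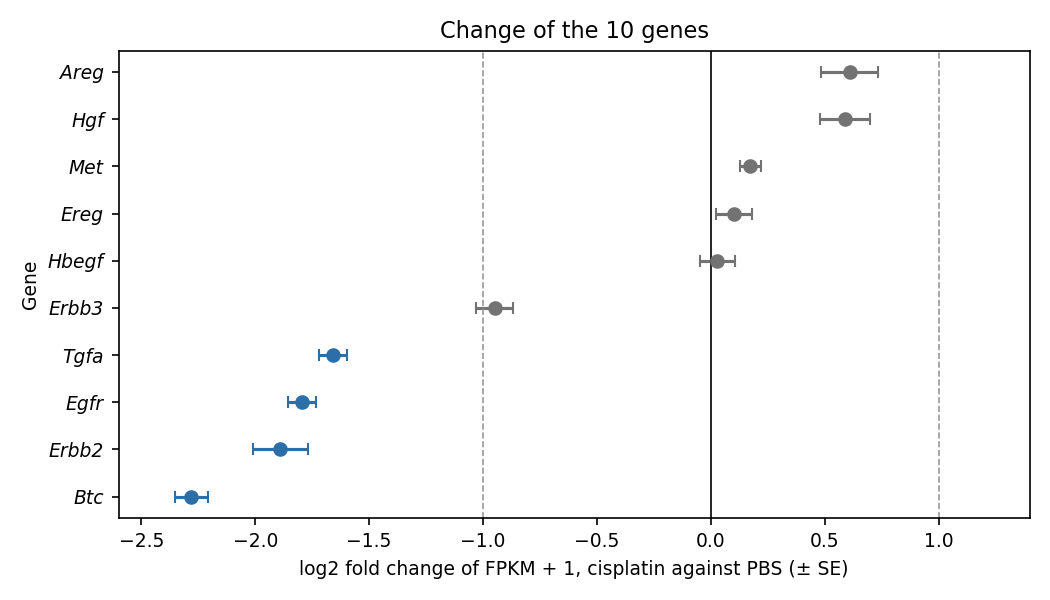
Log2 fold change of FPKM + 1, cisplatin against PBS, with bars for the SE from limma, the called genes in blue and the fold threshold as dashed lines. Btc, Erbb2, Egfr and Tgfa lay beyond -1, Erbb3 at -0.95 lay just inside it, and the other 5 lay between 0.028 and 0.61.

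The order of the 10 levels differed between the groups. With PBS the highest were Btc and Met, whose ranges overlapped, followed by Egfr, Tgfa, Ereg and Erbb2, each with a range apart from its neighbours. Erbb3 and Hbegf overlapped below these, and Hgf and Areg were the lowest. With cisplatin Met led alone at 21.01 FPKM and Ereg came next at 6.64 FPKM. Hbegf, Btc, Hgf and Egfr followed at 3.63 to 2.93 FPKM, each overlapping the next, then Areg, Tgfa and Erbb3 at 1.91 to 1.64 FPKM, again overlapping, and Erbb2 was the lowest at 0.686 FPKM. FPKM is a level per length of gene, with the same length used for a gene in all libraries. The order across genes is therefore approximate where the transcripts made differ from that length.

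The falls of the receptor and ligand genes stood beside that of the ID8, mesothelial and epithelial list. Its tested genes had a median log2 fold change of -2.13, against -2.28, -1.89, -1.80 and -1.66 for Btc, Erbb2, Egfr and Tgfa. The macrophage markers had a median of 0.92, against 0.61 for Areg, 0.59 for Hgf and 0.17 for Met. The log2(FPKM + 1) scale understates the change of low genes, so the order of these sizes is not firm. As ratios of means, Areg, Hgf and Erbb2 differed 2.12-fold, 1.78-fold and 7.59-fold. The 4 Y-linked genes, found in cells with a Y chromosome alone, were on average 1.39 to 1.45 times the mean of all libraries with cisplatin and 0.665 to 0.745 times with PBS. Under scaling to them the tested genes had a median of -0.83, so that genes lower without it lay lower with it by construction. The log2 fold changes then were -3.13 for Btc, -2.50 for Erbb2, -2.62 for Egfr, -2.41 for Tgfa, 0.046 for Areg and -0.12 for Hgf. Relative to that median, in the same order, they were -2.30, -1.67, -1.79, -1.58, 0.88 and 0.71. The scaling applies the same factor to all genes of a library, so values relative to the median are no second measurement. For every gene they differ from the unscaled changes through the 1 added to each FPKM before the log2. Which cells the transcripts came from was not tested.

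Other genes of these receptor families were mostly low. Of 9 further ligand and receptor genes only Nrg1 and Mst1r passed the filter, and 5 were under 1 FPKM in every library. Nrg1, which encodes neuregulin 1, a ligand of ErbB3 and ErbB4, rose from 0.207, 0.223 and 0.224 FPKM with PBS to 1.82, 2.02 and 1.65 FPKM with cisplatin (log2 fold change 1.21, SE 0.0996, limma adjusted p = 4.18e-05), having passed the filter through its cisplatin libraries alone, so that its level had to be higher there. Scaled to the Y-linked genes it came to 0.81, under the fold threshold, and to 1.64 relative to the median of all tested genes under that scaling. Mst1r, which encodes RON, the receptor most like Met, fell from 11.1, 11.0 and 11.4 FPKM to 1.34, 1.75 and 1.61 FPKM (log2 fold change -2.25, SE 0.073, limma adjusted p = 5.14e-07).

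In the list of ligand release and activation, 11 of 17 genes were tested, of which 1 was upregulated and 1 downregulated, 9.09% each, beside 4.67% and 11.3% of all tested genes. Spint1, which encodes an inhibitor of the proteases that activate HGF, rose from 0.306, 0.232 and 0.140 FPKM to 4.36, 5.17 and 5.84 FPKM (log2 fold change 2.32, SE 0.11, limma adjusted p = 3.58e-06), and it too passed the filter through its cisplatin libraries alone, which fixed its direction. Rhbdf1, which encodes iRhom1, a partner of the sheddase ADAM17, stood at 6.73 ± 0.47 FPKM with PBS and fell to 1.47 ± 0.14 (SD, n = 3 each), a log2 fold change of -1.64 (limma adjusted p = 2.59e-06). The sheddase genes, named after their values were seen, did not reach the fold threshold. Adam10 stood at 98.1 ± 3.42 FPKM with PBS and 53.6 ± 1.33 with cisplatin, a log2 fold change of -0.86 (limma adjusted p = 2.28e-06), and Adam9 likewise had one of -0.85 (limma adjusted p = 3.81e-06). Adam17 stood at 49.5 ± 1.16 and 46.9 ± 0.73 FPKM (log2 fold change -0.075, limma adjusted p = 0.0862).

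Downstream of the receptors most genes stayed within the thresholds. Of 30 tested signal transducers, 1 was upregulated and 3 (10%) were downregulated, near the 4.67% and 11.3% of all tested genes. The list's median log2 fold change was -0.11. Plcg2, which encodes a phospholipase of blood cells, rose (log2 fold change 1.07, SE 0.047, limma adjusted p = 2.02e-06) and came to 0.091 (adjusted p = 0.257) when scaled to the Y-linked genes, which is 0.92 above the median of all tested genes under that scaling. Src (-1.50, SE 0.097) and the ERK kinase gene Map2k1 (-1.11, SE 0.049) fell (limma adjusted p = 1.34e-05 and 2.04e-06). The third that fell was Pik3r2, a gene outside the naming rule, at 20.2 ± 1.24 FPKM with PBS and 9.21 ± 0.51 with cisplatin, a call lost after quantile normalisation (-0.98) and after scaling by the total of recovered reads (-0.98). Of the 19 tested feedback inhibitors 0 were upregulated and 2 (10.5%) downregulated, both of which act on EGF family receptors. Over all tested genes 4.67% were upregulated. With limma voom 0 of the list were upregulated as well, against 9.13% of all tested genes, and 6 (31.6%) were higher at an unadjusted limma p under 0.05, near the 34.3% of all tested genes. Lrig1, which promotes receptor breakdown, fell from 12.7 ± 0.92 to 2.46 ± 0.071 FPKM (log2 fold change -1.99, limma adjusted p = 4.83e-07), and Errfi1, which encodes the receptor kinase inhibitor MIG6, from 15.7 ± 0.54 to 6.002 ± 0.55 FPKM (log2 fold change -1.25, limma adjusted p = 4.96e-06). The median of this list was -0.16.

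Of the 14 tested genes that ERK signalling is known to induce, 0 were upregulated and 2 (14.3%) downregulated. Their median was -0.22, limma voom also called 0 higher, against the same 9.13%, and 3 (21.4%) were higher at an unadjusted limma p under 0.05, against 34.3% of all tested genes. The early growth response gene Egr1 stood at 20.4 ± 1.48 FPKM with PBS and fell to 6.47 ± 0.24 (SD, n = 3 each), a log2 fold change of -1.52 (limma adjusted p = 1.42e-06). Ier3 fell from 551 ± 10.8 to 219.9 ± 2.76 FPKM (log2 fold change -1.32, limma adjusted p = 1.42e-07). The shares called lower in the lists of ligand release, transducers, feedback inhibitors and ERK-induced genes, 9.09% to 14.3%, were thus near the 11.3% of all tested genes.

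**Figure D4:**
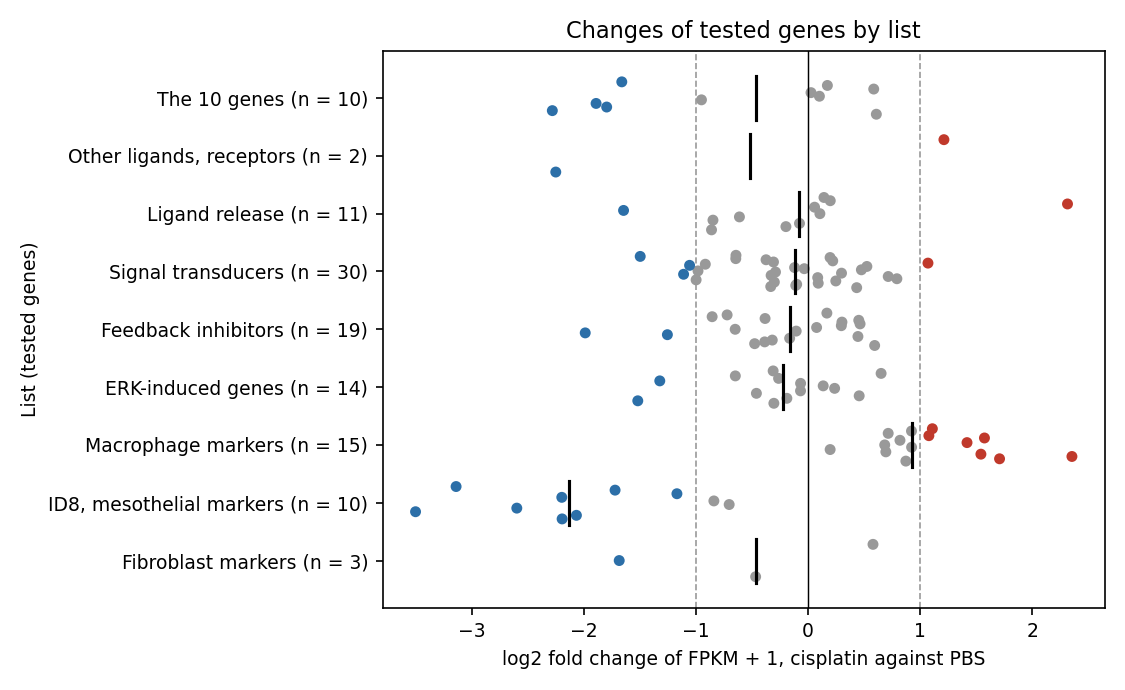
Log2 fold change of FPKM + 1, cisplatin against PBS, of every tested gene by list, with called genes coloured (blue lower, red higher), the list median as a black line and the fold threshold as dashed lines. The 10 genes lay on both sides of 0, the ID8 and mesothelial markers were all below it and the macrophage markers all above it.

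By Pearson's correlation of log2(FPKM + 1) over the 6 libraries, the tested genes most like Btc were Mb21d2 (r = 0.99985), Crim1 and Cask (both 0.99983). The 6 points share the gap between the groups, and 1534 tested genes had an r with Btc above 0.99.

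**Figure D5:**
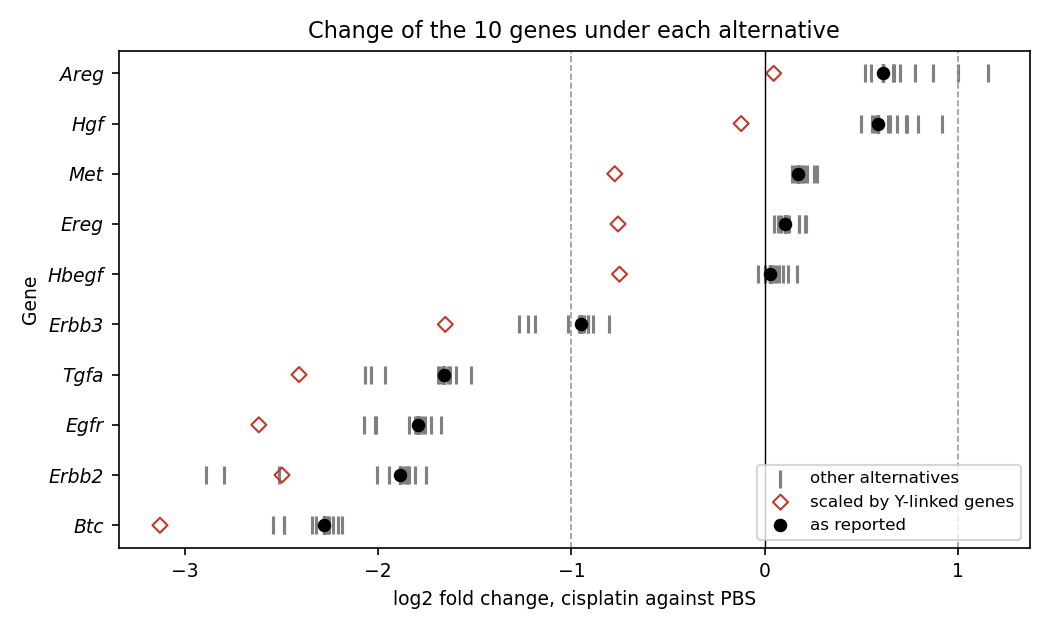
Log2 fold change of the 10 genes as reported (black), scaled to the Y-linked genes (open red diamonds) and under the other alternatives (grey ticks), with the fold threshold as dashed lines. Btc, Erbb2, Egfr and Tgfa lay beyond -1 under every alternative drawn, while Ereg, Hbegf (also without PBS replicate 2), Hgf and Met turned below 0 when scaled to the Y-linked genes, where the tested genes had a median of -0.83, relative to which these 4 stood at 0.073, 0.080, 0.71 and 0.056.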

How the data were processed

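Poly-T selected RNA of the 6 libraries was sequenced, and the deposited table holds FPKM per gene, made by the authors from reads per gene. The submitters' processing notes name fastp, HISAT2 2.0.5, featureCounts 1.5.0-p3 and the mm10 genome, whereas the study's methods name another aligner. Strandedness was not stated. Gene identifiers were matched to GENCODE M21 (GRCm38), and 98.3% of 54495 had the same coordinates. FPKM times gene length gave whole reads (within 0.02, for 100% of values under 200 reads), which summed to 15776238 to 17924686 per library. The deposited FPKM already shared a median-of-ratios scale, with equal factors in all libraries.

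Genes of at least 1 FPKM in at least 3 of 6 libraries were tested (13441) with limma 3.58.1 in R 4.3.3 on log2(FPKM + 1), with a trend in eBayes, Benjamini-Hochberg adjustment over all tested genes and the study's 2-fold threshold. The deposited unit is FPKM, so limma on the log scale was the main test, with limma voom on the recovered reads as an alternative, and the study's DESeq2 test was not run. The procedure was tested on simulated data.

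The 10 genes and the lists were chosen with earlier results of these data known. Named genes were the 10 members, the called genes with the 2 largest rises and 2 largest falls of each pathway list, and the 3 genes most correlated with the member that fell furthest. Alternatives were a pseudocount of 0.1, other filters (none, 5 FPKM, protein-coding), other scalings (median-of-ratios, TPM, quantile, the Y-linked genes Uty, Kdm5d, Eif2s3y and Ddx3y), eBayes without a trend, limma voom on recovered reads, the adjusted p alone, each library left out and the replicate number as a block. Scaling by the total of recovered reads was added after seeing the data. The groups share replicate numbers in the labels, and nothing says that these mark shared cultures. Promoter sequences are from RefSeq (GRCm38.p6), where 7 of the 10 genes were matched.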

Additional observations from a re-analysis of the deposited data

How the results depend on the processing

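Btc, Tgfa, Egfr and Erbb2 kept their direction and stayed past both thresholds under every alternative in which they were tested (from -3.13 to -2.19, -2.41 to -1.52, -2.62 to -1.68 and -2.89 to -1.75), and the number of the 10 genes called lower stayed within 1.5 times 4. Median-of-ratios scaling, with equal factors in all libraries, returned the values of the main fit and so adds no check. The direction of Erbb2 was set by the filter in the filtered fits, and without a filter its value was -1.89 (adjusted p = 9.94e-05). The number called higher went from 0 to 1 (Areg) with a pseudocount of 0.1 and with limma voom on recovered reads, and to 3 at the adjusted p alone. Scaling by the Y-linked genes, under which all tested genes together had a median of -0.83, reversed Ereg (-0.76), Hbegf (-0.75), Hgf (-0.12) and Met (-0.78), which relative to that median stood at 0.073, 0.080, 0.71 and 0.056. Among other genes named, it reversed Adgre1 (-0.12), Csf1r (-0.057) and Thy1 (-0.16), and Adam17 was reversed with voom (0.011) and with scaling by the total of recovered reads (0.010). Hbegf was also reversed without PBS replicate 2 (-0.034, against up to 0.073 with another library left out). Erbb2, Erbb3, Areg, Hbegf and Hgf were not tested with the filter at 5 FPKM, which keeps fewer genes.

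Under the Y-linked scaling 85 genes were called higher and 5181 lower over all tested genes, and of the lists 6 genes of ligand release, 16 transducers, 10 feedback inhibitors and 8 ERK-induced genes were called lower, while the called rises of the further ligands and receptors and of the transducers came to 0. Under the adjusted p alone, 4424 genes were higher and 4721 lower, with 5 lower in ligand release, 11 transducers higher and 14 lower, 6 feedback inhibitors higher and 10 lower, and 3 ERK-induced genes higher and 7 lower. The filter at 5 FPKM left 0 rises among the further ligands and receptors and in ligand release, since Nrg1 and Spint1 were not in it. Transducers called lower numbered 5 with a pseudocount of 0.1, 5 with TPM rescaling, and from 3 to 5 with each library left out, the 5 being without PBS replicate 2, and 2 after quantile normalisation and after scaling by the total of recovered reads, where Pik3r2 was lost. Genes called higher over all numbered 973 with a pseudocount of 0.1 and 1227 with voom. Upregulated genes made up 29.3% of all calls, 39.3% after quantile normalisation (median of all genes 0.10), 39.7% with voom and 1.61% after Y-linked scaling. The cause of these changes was not tested. With the replicate number as a block, 4 of the 10 genes were called lower and 0 higher, and no call of a member changed. Deviations of same-numbered libraries correlated at -0.10, -0.086 and -0.024, so the numbers were not taken to pair the libraries. With 31 to 46 and 16 to 20 reads a library, depth limits Areg most.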
